A study of Mus musculus with 4 samples.

Results

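The expression of 10 genes that write, erase and maintain DNA methylation was examined in fibroblasts cultured from mouse embryos (MEFs), a connective tissue cell, with and without MBD4. They are all the rows of the deposited gene table named *Tet1*, *Tet2*, *Tet3*, *Dnmt1*, *Dnmt3a*, *Dnmt3b*, *Dnmt3l*, *Uhrf1*, *Uhrf2* or *Hells*, 10 of 23537 genes. The table holds 2 libraries of primary *Mbd4*-/- MEFs (KO) and 2 of primary *Mbd4*+/+ MEFs (WT), all labelled C57BL/6 and taken at day 12.5 after coitus, with no other allele or treatment named. Total RNA of subconfluent cultures was depleted of ribosomal RNA and sequenced with its strand kept. The methods call the samples of a genotype independent without saying from how many embryos they came, so the p-values reflect only how these samples vary, and that variation may be technical. The sources do not say which part of *Mbd4* the KO allele lacks, so its count over the whole gene is only a limited check of the labels.

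Methyl groups are placed on the cytosine of CpG by DNA methyltransferases. DNMT3A and DNMT3B methylate new sites, assisted in germ cells by the catalytically inactive DNMT3L, while DNMT1 copies the pattern onto the daughter strand after replication. UHRF1 recognises hemimethylated CpG and brings DNMT1 to it, UHRF2 is its paralog, and HELLS (LSH) is a chromatin remodeller that gives the methyltransferases access to nucleosomal DNA. The TET enzymes oxidise 5-methylcytosine to 5-hydroxymethylcytosine and on to 5-formylcytosine and 5-carboxylcytosine, which the glycosylase TDG removes. MBD4 is a glycosylase that binds methylated CpG and removes the thymine left when 5-methylcytosine deaminates. The comparison asks whether cells without MBD4 transcribe the genes for methylation and demethylation differently.

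The libraries held 39108275 to 47567835 counts. Scaling by TMM, which assumes that most genes do not change, was followed by a quasi-likelihood test in edgeR, adjusted after Benjamini and Hochberg over 15538 genes, and "rose" or "fell" below means past an adjusted p of 0.05. The genotypes differed widely, and 66.8% of all genes tested passed this threshold, 34.3% higher in KO and 32.5% lower. With library totals in place of TMM, 6628 genes were higher and 3964 lower, and the median over all genes was 0.17 on the log2 scale in place of 0.024. Replicates differed by more than sampling noise, the chi-square averaging 5.99 per gene for the KO pair and 12.4 for the WT pair. *Mbd4* itself had 7.85 and 7.33 counts per 1000000 (CPM) in KO, against 14.8 and 15.4 CPM in WT (-0.99 ± 0.11 SE on the log2 scale, with an adjusted p of 2.8e-06 in edgeR). Of 10 fibroblast markers 7 fell and 0 rose. The 3 that did not pass the test were *Pdgfra* (-0.06 on the log2 scale), *Pdgfrb* (0.09) and *Thy1* (0.06), named here after their values were seen. The summed level of the 10 was 12700 and 13900 CPM in KO, against 23300 and 21000 CPM in WT. The proteoglycan genes *Dcn* and *Lum* fell, *Dcn* to 5 and 7 counts in KO, against 1349 and 1123 counts in WT, and *Lum* to 0 and 1 counts in KO, against 142 and 131 counts in WT. The collagen gene *Col1a2*, the highest of the list in CPM averaged over the libraries, had 4420 and 4860 CPM in KO, against 6350 and 5530 CPM in WT. Markers of other cell types moved in both directions. The neural progenitor gene *Nes* had 137 and 130 CPM in KO, against 426 and 341 CPM in WT, and the tubulin gene *Tubb3* also fell, while the receptor gene *Csf1r* of macrophages (4.12 and 4.29 CPM in KO, against 1.36 and 1.15 CPM in WT) and the epithelial cadherin gene *Cdh1* (2.99 and 2.60 CPM in KO, against 0.223 and 0.220 CPM in WT) rose. The other 5 epithelial markers had at most 18 counts in any library. Only 2 of the 6 epithelial markers had enough counts to be tested, *Cdh1* and 1 that did not pass the test. The pan-leukocyte gene *Ptprc* fell, and the 5 endothelial markers, the highest of them in CPM *Tek*, summed to under 1 CPM in every library. In such bulk samples fewer cells of a type and less RNA per cell cannot be told apart, and the part of these differences in the results below was not tested.

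Among the 10 members, 5 rose in the KO cells (*Tet1*, *Tet2*, *Dnmt1*, *Uhrf2* and *Hells*), 1 fell (*Tet3*), 3 did not pass the test (*Dnmt3a*, *Dnmt3b* and *Uhrf1*), and *Dnmt3l* was removed by the filter on low counts. These are 6 of 9 tested members, close to the 66.8% of all genes that passed the same threshold, so the number of calls does not set the members apart. The median log2 fold change of the 9 was 0.22, against 0.024 over all genes tested. In 6 of 9 members the KO libraries did not overlap the WT libraries, as was so in 82.8% of all genes. At stricter limits, an adjusted p of 0.01 together with a log2 fold change beyond 2 in size, *Tet1* was the only member called, as a rise. Of all genes 8.94% passed these limits, and 5.79% did so as a rise. The size of its log2 fold change was larger than that of 95.4% of the genes tested. Those of the other called members lay between the percentiles 26.3 (*Hells*) and 60.8 (*Tet2*).

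**Figure D1:**
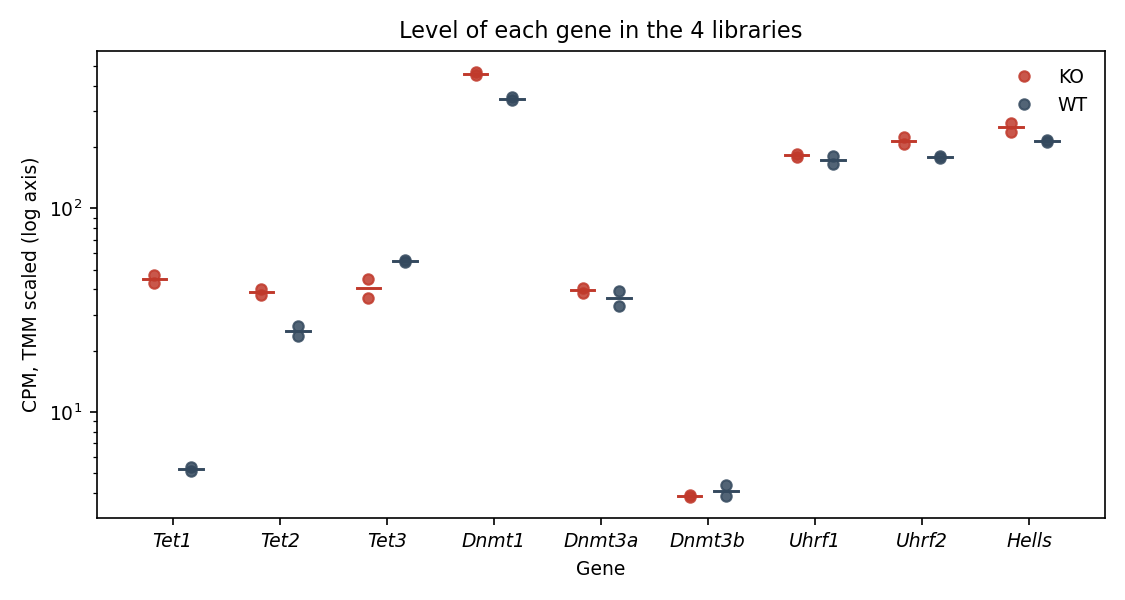
Level of the 9 tested members in counts per 1000000 (CPM, log axis) in each library, with KO libraries in red left of WT libraries in dark blue and a line at each group's mean of 2 libraries. *Tet1* lies at 43.0 and 46.9 CPM in KO, against 5.14 and 5.35 CPM in WT, while the other genes lie close together between genotypes. *Dnmt3l*, with 1 count in all, is not drawn.

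Levels can be ranked between genes only per length, here as CPM per kb of annotated exon. *Dnmt1* was the most abundant in both genotypes, with 85.7 and 89.0 CPM per kb in KO and 66.7 and 64.7 CPM per kb in WT. It was followed by *Uhrf1* (42.0 and 43.6 CPM per kb in KO, 42.5 and 38.6 in WT), *Hells* (36.6 and 33.0 in KO, 30.1 and 29.5 in WT) and *Uhrf2* (26.1 and 24.0 in KO, 20.5 and 20.9 in WT), and neighbours in this order did not overlap. The place of *Uhrf2* depends on the length taken, since by its longest transcript it had 63.3 and 58.4 CPM per kb in KO, above the 49.9 and 51.7 of *Uhrf1*, and 49.8 and 50.8 in WT, overlapping the 50.5 and 45.9 of *Uhrf1*. The dioxygenases and the new-site methyltransferases formed a lower tier. In KO these were *Tet2* at 4.05 and 4.35 CPM per kb, *Tet3* at 3.26 and 4.07, which overlapped it, *Tet1* at 2.92 and 3.19 and *Dnmt3a* at 2.29 and 2.45. In WT the order was *Tet3* (4.90 and 5.02 CPM per kb), *Tet2* (2.57 and 2.87) and *Dnmt3a* (2.36 and 1.99), with *Tet1* at 0.349 and 0.363 below even *Dnmt3b* at 0.752 and 0.851. By the longest transcript *Dnmt3a* had 3.94 and 4.21 CPM per kb in KO and 4.05 and 3.41 in WT, so that it overlapped *Tet2* and *Tet3* in KO and lay above *Tet2* in WT.

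The largest change was that of *Tet1*, which encodes a 5-methylcytosine dioxygenase known for its abundance in pluripotent and primordial germ cells. *Tet1* (ENSMUSG00000047146) occupies chr10:62267318-62361866 of mm9 (minus strand). It had 2045 and 1935 counts in KO, against 230 and 219 counts in WT. This is 8.58 times the WT level (log2 fold change 3.10, 95% interval 2.90 to 3.30, adjusted p = 8.9e-12 from edgeR), and replicates of each genotype lay close to each other. Leaving out any 1 library gave log2 fold changes of 3.04 to 3.17. In such fits a genotype has a single library, which is assumed to vary like the pair of the other genotype, here and wherever a library is left out. *Tet2*, the family member without a CXXC zinc finger of its own, had 37.3 and 40.1 CPM in KO, against 23.7 and 26.4 CPM in WT (0.63 ± 0.08 SE on the log2 scale, with an adjusted p of 1.4e-05 in edgeR). *Tet3*, the dioxygenase known for oxidising the paternal genome of the zygote, moved the other way, with 36.2 and 45.1 CPM in KO, against 54.3 and 55.7 CPM in WT (-0.44 ± 0.09 SE on the log2 scale, with an adjusted p of 0.00091 in edgeR). The fall of *Tet3* was uneven between the KO libraries, since it was -0.28 on the log2 scale without KO replicate 1 and -0.61 without KO replicate 2, past the threshold in both cases. It was also -0.29 with library totals in place of TMM.

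Because the genes moved in opposite directions, the makeup of the family changed within each library, a measure that no scaling between libraries can alter. Of all *Tet* counts per kb of exon, *Tet1* took 28.6% and 27.5% in KO, against 4.47% and 4.40% in WT. *Tet3* took 31.9% and 35.1% in KO, against 62.6% and 60.8% in WT, and *Tet2* took 37.5% to 39.6% in KO, against 32.9% to 34.8% in WT. WT cells thus drew most of their *Tet* transcripts from *Tet3*, while in KO cells the family was spread over all of its genes. For each share the genotypes did not overlap, and each had an exact two-sided permutation p of 0.333, the smallest that 2 libraries per genotype allow. The summed *Tet* level was 10.2 and 11.6 CPM per kb in KO, against 7.82 and 8.26 CPM per kb in WT, a log2 ratio of 0.44 between the means (exact permutation p = 0.333). The log2 ratio of *Tet1* to *Tet3* counts was 0.25 and 0.06 in KO, against -3.40 and -3.38 in WT. Gene counts sum all transcripts of a gene and do not separate the annotated *Tet1* isoforms.

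**Figure D2:**
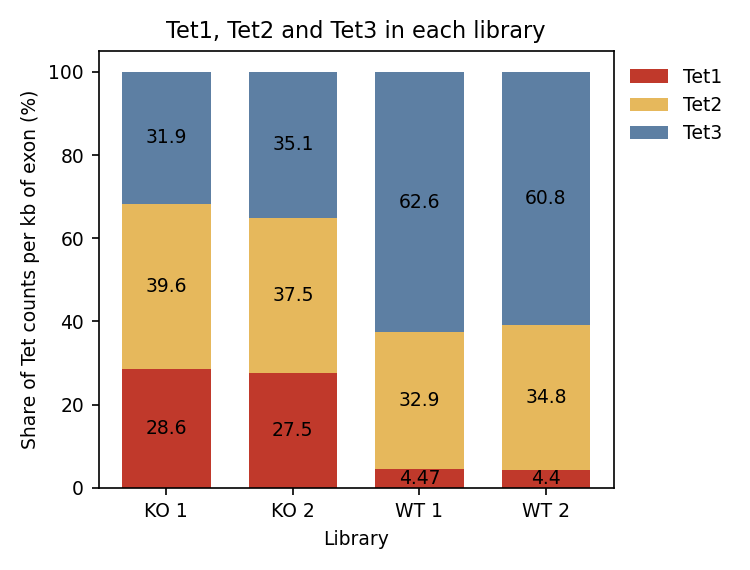
Share (%) of the *Tet1*, *Tet2* and *Tet3* counts per kb of exon in each of the 4 libraries, KO libraries left of WT libraries, with each share printed in its bar. *Tet1* takes 28.6% and 27.5% in KO, against 4.47% and 4.40% in WT, and *Tet3* is the largest share in both WT libraries.

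The sequences before the start sites of the *Tet* genes are shown because CpG is what these enzymes and MBD4 act on, and because the genes moved differently. They are the 250 bases before the RefSeq start, from the GRCm38.p6 table, with each CpG in capitals.
Tet1: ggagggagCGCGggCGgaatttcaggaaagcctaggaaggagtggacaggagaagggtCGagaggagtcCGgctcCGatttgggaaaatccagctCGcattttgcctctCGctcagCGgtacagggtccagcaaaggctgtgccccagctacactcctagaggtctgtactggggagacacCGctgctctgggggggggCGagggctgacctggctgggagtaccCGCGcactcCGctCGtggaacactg
Tet2: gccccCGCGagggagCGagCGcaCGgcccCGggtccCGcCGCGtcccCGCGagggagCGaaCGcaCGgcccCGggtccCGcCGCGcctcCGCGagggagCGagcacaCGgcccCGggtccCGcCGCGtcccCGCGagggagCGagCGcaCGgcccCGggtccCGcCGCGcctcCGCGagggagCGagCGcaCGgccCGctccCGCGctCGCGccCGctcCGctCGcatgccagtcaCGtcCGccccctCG
Tet3: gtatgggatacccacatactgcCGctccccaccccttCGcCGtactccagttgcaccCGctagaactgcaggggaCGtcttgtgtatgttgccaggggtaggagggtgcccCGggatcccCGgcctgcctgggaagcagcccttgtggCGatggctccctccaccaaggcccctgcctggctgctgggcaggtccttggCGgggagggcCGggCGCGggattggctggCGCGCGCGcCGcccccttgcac
They match mm9 at chr10:62350073-62350322 (*Tet1*), chr3:133207355-133207604 (*Tet2*) and chr6:83391673-83391922 (*Tet3*), all on the minus strand. That of *Tet1* lies outside annotated exons, 11794 bases downstream of the first start that Ensembl gives the gene, while the RefSeq starts of *Tet2* and *Tet3* are also the Ensembl gene starts. The stretches hold 15 CpG in *Tet1*, 51 in *Tet2* and 17 in *Tet3*. With the 50 bases after the start included, the windows of 300 bases held 17 CpG in *Tet1*, 57 in *Tet2* and 22 in *Tet3*, against a median of 7 over 32851 windows of the same length, and more CpG than 68.6%, 99.8% and 76.9% of them. In these windows *Tet1* and *Tet3* were thus close in CpG number, and *Tet2* stood well above both. No window at the first Ensembl start of *Tet1* was counted, and which start the cells used was not tested. Methylation of these windows was not analysed here.

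Of the DNA methyltransferase genes only *Dnmt1* passed the test. *Dnmt1* (ENSMUSG00000004099, mm9 chr9:20711650-20757317, minus strand), which encodes the maintenance enzyme, had 451 and 468 CPM in KO, against 351 and 340 CPM in WT. The groups were well apart relative to their replicates, and the rise came to 1.33 times the WT level (0.41 ± 0.06 SE on the log2 scale, with an adjusted p of 3.2e-05 in edgeR). *Dnmt3a*, which methylates new sites in somatic cells, had 38.2 and 40.8 CPM in KO, against 39.3 and 33.1 CPM in WT. The groups overlapped and the 95% interval of its log2 fold change ran from -0.06 to 0.31 (adjusted p = 0.22 from edgeR), while it passed the test as a rise without WT replicate 1 (0.25, adjusted p = 0.010) and with library totals. *Dnmt3b*, the enzyme of early embryos, was among the less abundant members, with 3.89 and 3.83 CPM in KO, against 3.84 and 4.35 CPM in WT, and its interval of -0.43 to 0.26 on the log2 scale leaves room for moderate changes in either direction. *Dnmt3l*, active in germ cells and early embryos, had 0 and 0 counts in KO, against 1 and 0 counts in WT. A count of 0 over the KO group allows up to 0.0356 CPM, for counting error only, so that a difference was not detectable at this depth.

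As a share of all *Dnmt* counts per kb of exon, *Dnmt1* took 96.6% and 96.5% in KO, against 95.5% and 95.8% in WT, and *Dnmt3a* took 2.58% and 2.66% in KO, against 3.38% and 2.94% in WT. The maintenance enzyme thus made up nearly all *Dnmt* transcripts in both genotypes, and the shift of 0.876 percentage points (exact permutation p = 0.333, the smallest possible) was small beside that within the *Tet* family. The summed *Dnmt* level was 88.7 and 92.2 CPM per kb in KO, against 69.8 and 67.5 CPM per kb in WT.

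Of the remaining members, *Uhrf2* and *Hells* passed the test and *Uhrf1* did not. *Uhrf1*, the recruiter of DNMT1, had 179 and 186 CPM in KO, against 181 and 165 CPM in WT, so that the groups overlapped. Its log2 fold change was 0.08 with a 95% interval of -0.06 to 0.21 (adjusted p = 0.30 from edgeR), which leaves out a rise as large as that estimated for *Dnmt1*. With library totals it was 0.23 and passed the test. *Uhrf2*, its paralog, had 224 and 206 CPM in KO, against 176 and 180 CPM in WT (0.27 ± 0.06 SE on the log2 scale, with an adjusted p of 0.0014 in edgeR), a rise of 1.21 times. *Hells*, the remodeller, had 263 and 238 CPM in KO, against 217 and 212 CPM in WT (0.22 ± 0.06 SE on the log2 scale, with an adjusted p of 0.0067 in edgeR). The call of *Hells* rested on KO replicate 1, without which its log2 fold change was 0.15 with an adjusted p of 0.11. With library totals the changes of *Uhrf2* and *Hells* were 0.42 and 0.37 on the log2 scale. The log2 ratio of *Hells* to *Uhrf1* within a library was 0.56 and 0.36 in KO, against 0.26 and 0.37 in WT, and overlapped (exact permutation p = 0.667). That of *Uhrf2* to *Uhrf1* was 0.32 and 0.15 in KO, against -0.04 and 0.13 in WT (exact permutation p = 0.333, the smallest possible).

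**Figure D3:**
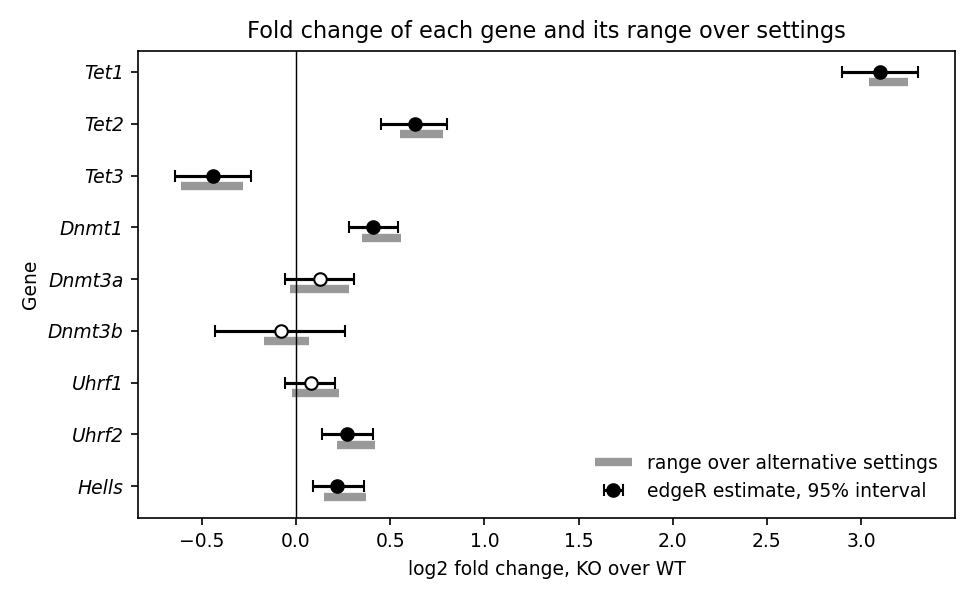
The 9 tested members at their edgeR log2 ratio of KO to WT with its 95% interval, filled where an adjusted p of 0.05 was passed, and below it in grey the range over all settings tried. *Tet1* lies at 3.10, every other member between -0.44 and 0.63, and the ranges of *Dnmt3a*, *Dnmt3b* and *Uhrf1* cross 0.

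*Dnmt1*, *Uhrf1* and *Hells* are known as genes transcribed with DNA replication, so they were set beside 28 genes of S phase. Of these 13 rose, 8 fell and 7 did not pass the test, with a median log2 fold change of 0.09, beside 34.3% higher and 32.5% lower over all genes. The direction differed among genes of the same process. Among the subunits of the replicative helicase *Mcm6* rose by 0.95 and *Mcm4* by 0.66 on the log2 scale, and the primase gene *Prim1* (0.77) and the polymerase gene *Pola1* (0.68) rose too. In the other direction *Gins3* of the helicase complex was at -0.61 and the licensing factor gene *Cdt1* at -0.56. The ribonucleotide reductase gene *Rrm2* was at -0.55 and the proliferation marker *Mki67* at -0.52. Subunits of the helicase differed among themselves, since *Mcm5* fell (-0.43) and *Gins4* rose (0.33), both named here after their values were seen. *Top2a*, the highest of the list in CPM, had 1050 and 968 CPM in KO, against 961 and 975 CPM in WT (adjusted p = 0.42 from edgeR). Within each library, the log2 ratio of *Dnmt1* to the mean of the 28 genes was 2.16 and 2.23 in KO, against 1.85 and 1.88 in WT, while that of *Uhrf1* was 0.82 and 0.89 in KO, against 0.89 and 0.83 in WT. *Dnmt1* was thus higher in KO relative to the S phase genes by 0.33 on the log2 scale (exact permutation p = 0.333, the smallest possible), and *Uhrf1* overlapped. The same ratio of *Hells* was 1.38 and 1.25 in KO, against 1.15 and 1.20 in WT. For *Uhrf2* it was 1.15 and 1.05 in KO, against 0.85 and 0.96 in WT. Both were thus also higher in KO, by 0.14 and 0.19 (exact permutation p = 0.333 for each), so this was not particular to *Dnmt1*. The log2 ratio of *Dnmt1* to *Uhrf1* was 1.33 and 1.34 in KO, against 0.96 and 1.05 in WT. The share of cells in S phase was not measured, and its part in these values was not tested.

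Windows of these replication-linked genes hold words of a set that was not found in the windows of the other members, and the stretches around them are shown for that reason. The words TTTCCCGC, TTTGGCGC and TTTCGCGC, forms of the site of the E2F factors of the cell cycle, were sought on both strands of the RefSeq windows of 300 bases (250 before to 50 after each start, GRCm38.p6). They occurred in 1.84% of all 32851 windows and, of the 17 windows of the members, in 3, belonging to *Dnmt1*, *Uhrf1* and *Hells*. The word before the RefSeq start is given in capitals, which in *Dnmt1* is the reverse complement. No word was found in all of the 3 genes.
Dnmt1: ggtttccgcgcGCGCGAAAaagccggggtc
Uhrf1: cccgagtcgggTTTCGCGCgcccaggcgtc
Hells: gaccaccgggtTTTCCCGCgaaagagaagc
The words begin 219 bases before the RefSeq start in *Dnmt1* (chr9:20952824-20952853, minus strand), 185 in *Uhrf1* (chr17:56304117-56304146, plus strand) and 62 in *Hells* (chr19:38930917-38930946, plus strand). The windows of *Dnmt1* and *Uhrf1* belong to the most downstream of 3 and 2 RefSeq starts, and that of *Dnmt1* holds TTTGGCGC after the start as well. In mm9 these RefSeq starts lie 250 (*Dnmt1*), 992 (*Uhrf1*) and 75 (*Hells*) bases downstream of the Ensembl gene starts, so that the words lie inside the Ensembl genes. Of the genes with these words *Dnmt1* and *Hells* rose and *Uhrf1* did not pass the test. Such matches are a description of the sequence and show no binding.

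Other genes of the pathway were read from the same fit, in lists chosen with earlier results known. Among 18 tested partners and regulators of these enzymes 7 rose and 6 fell, with a median log2 fold change of 0.01. Over all genes 34.3% rose and 32.5% fell, so that the share called is near that of all genes. *Cxxc5*, which encodes a CXXC zinc finger protein that binds unmethylated CpG, had 51.9 and 58.0 CPM in KO, against 28.6 and 26.7 CPM in WT (log2 fold change 0.99, adjusted p = 1.4e-07 from edgeR). *Lig1*, the DNA ligase that joins Okazaki fragments and binds UHRF1 when methylated, rose by 0.62 on the log2 scale, the histone H3K4 demethylase gene *Kdm1b* by 0.60 and *Zfp57*, the zinc finger protein of imprinting control regions, by 0.31. *Trdmt1*, the *Dnmt* homologue that methylates transfer RNA, fell by 0.53, the PCNA-associated factor gene *2810417H13Rik* by 0.40, the corepressor gene *Trim28*, the highest of the list in CPM, by 0.38 and the histone H3K9 methyltransferase gene *Ehmt1* by 0.24, a call lost with library totals and without KO replicate 1 (adjusted p = 0.064 from edgeR). With library totals 9 of these genes were higher and 3 lower.

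The list for removal of oxidised or deaminated cytosine also holds general base excision repair genes and the *Gadd45* genes. Of its 12 tested genes 8 fell and 3 rose, with a median log2 fold change of -0.35, beside 32.5% lower and 34.3% higher over all genes. *Tdg*, the glycosylase that removes the end products of TET oxidation, had 20.4 and 20.8 CPM in KO, against 32.2 and 29.0 CPM in WT (log2 fold change -0.57, adjusted p = 3.5e-05 from edgeR). The next steps of base excision repair were lower as well, with the endonuclease gene *Apex1* at -1.05 and the polymerase gene *Polb* at -0.86 on the log2 scale, while *Parp1*, the highest of the list in CPM averaged over the libraries, was at -0.29. The scaffold gene *Xrcc1* rose by 0.32 and the stress-response genes *Gadd45g* and *Gadd45b* rose by 0.82 and 0.19 while *Gadd45a* fell by 0.42. The call of *Gadd45b* was lost without KO replicate 2 (adjusted p = 0.11 from edgeR) and without WT replicate 2 (0.13).

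Enzymes that supply the methyl donor S-adenosylmethionine, or the 2-oxoglutarate that TET enzymes consume, showed 10 lower and 3 higher of 16 genes, with a median log2 fold change of -0.30, beside 32.5% lower and 34.3% higher over all genes. *Ahcy*, which clears S-adenosylhomocysteine, the product that inhibits methyltransferases, had 22.0 and 23.7 CPM in KO, against 49.6 and 48.0 CPM in WT (log2 fold change -1.10, adjusted p = 2.8e-08 from edgeR). The folate enzyme gene *Mthfd1* fell, at -0.67 on the log2 scale, and so did *Mat2a*, which makes S-adenosylmethionine, at -0.33, while the methionine synthase gene *Mtr* rose by 0.40 and *Mat2b* by 0.17, a call lost when any 1 library was left out. *D2hgdh*, which encodes an enzyme that turns the D form of 2-hydroxyglutarate, an inhibitor of TET enzymes, back into 2-oxoglutarate, had 22.7 and 23.1 CPM in KO, against 6.03 and 6.08 CPM in WT (log2 fold change 1.92, adjusted p = 1.8e-09 from edgeR).

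**Figure D4:**
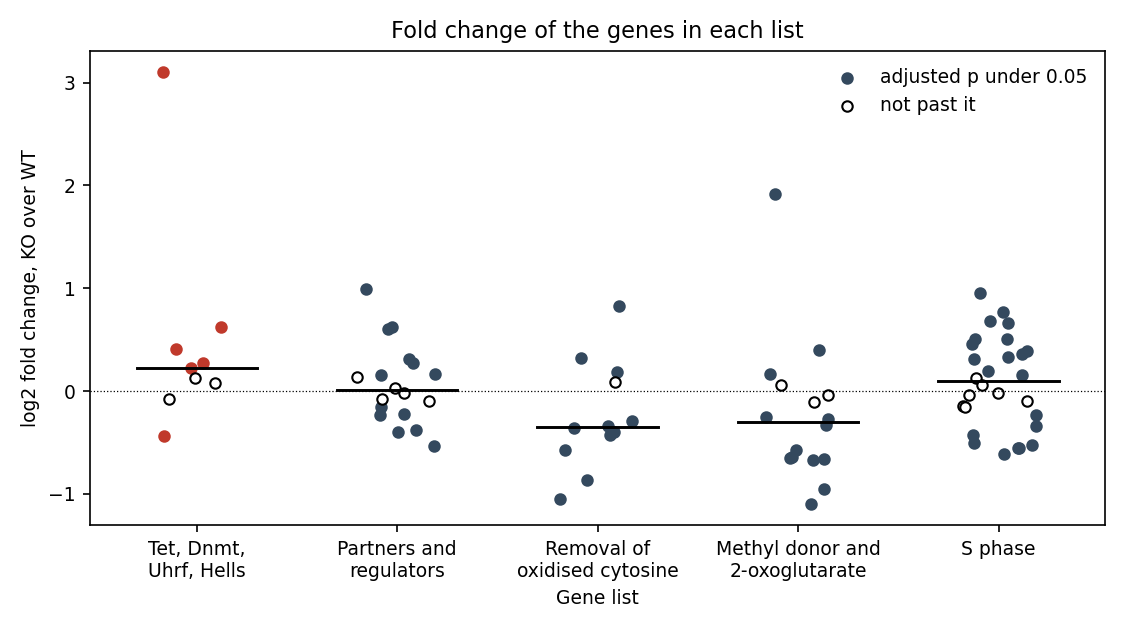
Each tested gene by list, at its edgeR log2 ratio of KO to WT, filled where an adjusted p of 0.05 was passed, with the list's median as a line. The medians are 0.22 for the members, 0.01 for partners and regulators, -0.35 for the list on removal of oxidised cytosine, -0.30 for methyl donor and 2-oxoglutarate supply and 0.09 for S phase. *Tet1*, at 3.10, is the highest point.

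Germline genes that DNA methylation is known to keep silent gave next to no reads in either genotype. Of a list of 13 such genes the table holds 8, none of which had enough counts to be tested in edgeR, so that no p was obtained. Their summed level was 0.252 and 0.218 CPM in KO, against 0.179 and 0.0976 CPM in WT, and *Tdrd1*, the highest in CPM, had 4 and 7 counts in KO, against 4 and 2 counts in WT. The pluripotency genes with which *Tet1* is known to be expressed were also low. *Nanog* had 1.64 and 1.31 CPM in KO, against 1.34 and 1.37 CPM in WT (adjusted p = 0.65 from edgeR), and *Pou5f1* and *Sox2*, named here after their values were seen, had 7 and 18 and 1 and 2 counts in KO, against 10 and 8 and 0 and 0 counts in WT. The 6 markers of pluripotent and primordial germ cells in the table summed to 2.86 and 3.03 CPM in KO, against 2.57 and 2.27 CPM in WT.

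Genes beside the members moved in both directions. *Ccar1*, 12201 bases from *Tet1* on the same strand, had 146 and 136 CPM in KO, against 156 and 150 CPM in WT (log2 fold change -0.12, adjusted p = 0.099 from edgeR). At *Tet3* the noncoding gene *B230319C09Rik* starts 76 bases away and is transcribed from the other strand, and its exons overlap the 250 bases shown for *Tet3*. It had 36 and 31 counts in KO, against 1 and 10 counts in WT (2.52 ± 0.57 SE on the log2 scale, with an adjusted p of 0.0014 in edgeR), so that it rose while *Tet3* fell. *Dnmt1* lies between *Eif3g*, which fell by 0.52 on the log2 scale, and *S1pr2*, a receptor gene for sphingosine 1-phosphate, which rose by 0.62. *Uhrf1* lies between *Plin3* (-0.83) and *Kdm4b* (0.54), and beside *Hells* the cytochrome P450 gene *Cyp2c55* had 0.757 and 0.437 CPM in KO, against 9.04 and 8.20 CPM in WT. Exons of *Dnmt3a* share 133 bases with *Gm10485*, and exons of *Dnmt3l* share 67 bases with *Aire*, both on the opposite strand. *Gm10485* had 1 count in all and *Aire* at most 0.168 CPM, so few reads fell on these overlapping genes. *Tet1* overlaps a U6 gene within an intron, which was not analysed here.

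With 4 libraries in 2 groups many genes share any 1 pattern, and the genes nearest to *Tet1* are given as a description. By the distance between log2 CPM values centred per gene over the 4 libraries, they were the bile salt exporter gene *Abcb11* (distance 0.0694), the interleukin-13 decoy receptor gene *Il13ra2* (0.0781) and the thioesterase gene *Acot11* (0.110). All were less abundant than *Tet1*, with 1.35 and 1.50 CPM of *Abcb11* in KO, against 0.134 and 0.146 CPM in WT, 2.21 and 2.57 CPM of *Il13ra2* in KO, against 0.246 and 0.269 CPM in WT, and 9.80 and 9.75 CPM of *Acot11* in KO, against 1.05 and 1.12 CPM in WT.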

How the data were processed

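RNA was measured in *Mbd4*-/- (KO) and *Mbd4*+/+ (WT) MEFs, with 2 libraries per genotype. The authors mapped reads to mm9 with TopHat2 and Bowtie and deposited raw read counts for Ensembl genes, made with HTSeq 0.5.4p3 (tools and version from the submitters' processing notes). The sources do not state whether HTSeq counted by strand. A further 5 columns of per-sample values, and the authors' comparison columns of log2 ratios and p-values, were not used. The quasi-likelihood test of edgeR 4.0.16 (R 4.3.3) was run with TMM factors on the 15538 genes that passed filterByExpr. The model held genotype alone, p-values were adjusted by the Benjamini-Hochberg method, and the threshold was 0.05. The libraries held 39108275 to 47567835 counts. A standard error was taken as the size of the log2 fold change over the square root of F. In data simulated from these libraries for KO against WT, with 15263 genes, the test recovered 51 of 67 genes simulated at a log2 change of 0.5, 62 of 67 at 1 and 66 of 66 at 3, with 19 false calls. Only these few genes were changed, alternately up and down, with the fitted dispersions taken as true. In the measured data 66.8% of genes were called, so the simulation gives no error rate for them. Exon lengths are unions of exons in GENCODE M1 on mm9, which holds 23393 of the 23537 identifiers. Promoter sequences are RefSeq's (GRCm38.p6), found for 10 of 10 members and placed in mm9 by exact match. The members and lists were chosen with earlier results of these data known. Genes named outside the members are the nearest or overlapping genes, the most abundant of each list with at most 4 (pathway lists) or 2 (marker lists) called in each direction, and the 3 with the pattern most like that of the member with the largest fold change. Some genes that this rule names are not reported here. A few others were named after their values were seen and are marked as such. Alternatives were RLE, upper-quartile and library-total scaling, other filters and thresholds, DESeq2 1.42.0, voom of limma 3.58.1, the replicate number as a block, leaving out each library, and other gene lengths. Exact permutation tests used scipy 1.17.1.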

Additional observations from a re-analysis of the deposited data

How the results depend on the processing

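Over 12 alternative scalings, filters, tools and left-out libraries, *Tet1*, *Tet2*, *Tet3*, *Dnmt1* and *Uhrf2* kept their direction and stayed past an adjusted p of 0.05, and *Hells* did so in 11. The log2 fold change of *Tet1* ranged from 3.04 to 3.25 and that of *Dnmt1* from 0.35 to 0.56. With library totals 6628 genes were higher and 3964 lower, the median of all genes was 0.17, against 0.024 with TMM, *Dnmt3b* turned to 0.07 without passing the test, and *Dnmt3a* (0.28, adjusted p = 0.013 from edgeR) and *Uhrf1* (0.23, adjusted p = 0.0051) passed it. Leaving out each library gave -0.03 to 0.25 for *Dnmt3a*, which passed the test only without WT replicate 1 (adjusted p = 0.010 from edgeR), -0.02 to 0.14 for *Uhrf1*, and 4 to 6 members higher with 1 lower. It gave 4273 to 5283 genes higher and 4295 to 5342 lower. At an adjusted p of 0.01 and a log2 change beyond 2 in size, 900 genes were higher and 489 lower, and of the members 1 was higher and 0 lower (*Tet3*, at -0.44 in edgeR and -0.46 in DESeq2, did not reach the fold limit). The labels number the replicates of both genotypes, but the deviations of equally numbered libraries from their group means correlated at -0.03 across genes. With the replicate number as a block, 5299 genes were higher and 4999 lower and no call of a member changed. The difference in the share of *Tet1* ranged from 23.0 to 30.1 percentage points and that of *Dnmt1* from 0.7 to 1.8 over 6 alternatives. With 2 libraries per genotype, the test recovered 51 of 67 genes simulated at a log2 change of 0.5, in data where few genes were changed. Smaller changes such as those of *Uhrf2* and *Hells* were not simulated.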
